A study of Mus musculus with 2 samples.

Results

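A small set of adherent GL261 cells, chosen for a high share of the transcript of Ly6a, a surface protein gene also known as Sca-1, is described here gene by gene. GL261 is a mouse glioma line from the C57BL/6 strain, labelled astrocytoma, and no genetic change was made to it. Adherent cells grew in DMEM with fetal bovine serum. Neurosphere cells were given B-27, EGF (20 ng/ml) and FGF (20 ng/ml) for 12 days. Each condition was read once, as a single 10x Genomics 3' scRNA-Seq library of frozen cells, so no difference has a replicate check and no test was run. Adherent cells were detached with trypsin, while neurospheres were spun down and broken up by trituration, after trypsin per the labels.

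After mitochondrial and ribosomal protein genes were removed, 5051 of 5764 called adherent cells held at least 1000 unique molecular identifiers (UMIs) and 1250 genes and were kept. Cells were ranked by their share of Ly6a, its UMIs divided by all UMIs left in the cell, and the top 5%, 253 cells, were taken as Ly6a-high. They are 253 of 9327 kept cells in the series. They were compared with 4085 kept adherent cells that had 0 UMIs of Ly6a, and 713 cells lay between. Levels are UMIs summed over a set of cells and scaled to all UMIs of the set on the genes left (CPM). The intervals are exact 95% intervals and cover counting error only, since cells of 1 library are not replicates.

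The Ly6 genes encode small surface proteins with a disulphide-bonded three-finger fold, most of them held in the membrane by a GPI anchor. Ly6a is best known as a marker of mouse hematopoietic stem cells and of vascular and mesenchymal progenitors. It lies in a cluster of related genes on chromosome 15 and is among the genes that interferons induce. Cd81, Ydjc and Rgcc were listed with Ly6a as markers of these cells. Cd81 is a tetraspanin, Rgcc a cell cycle regulator induced by TGF-beta in several cell types, and Ydjc a gene for a deacetylase-like protein.

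The values of Ly6a chose the cells, so they are given as a description. Ly6a (ENSMUSG00000075602) lies on the minus strand of chromosome 15, from 74994877 to 74998031 in mm10. A UMI of it was seen in 966 kept adherent cells, 19.1% (18.0 to 20.2). Ly6a-high cells held 1576 of the 2719 UMIs of Ly6a in the kept cells, 58.0%. A Ly6a-high cell held 1 to 59 UMIs of Ly6a, with a median of 4. Most rested on few molecules: 12 cells had 1 UMI, 23 had 2, 118 had 3 to 5, 59 had 6 to 9 and 41 had 10 or more. Per cell, the share ran from 320.5 to 5064 CPM with a median of 487 CPM, and the summed level was 672 CPM. In the cells between, the summed level was 139 CPM. The last cell inside the limit had 3 UMIs of Ly6a among 9360, and the first outside had 3 among 9376, so the limit divides a continuous range.

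A share built on few UMIs overstates the level of the cells it picks. Each cell's UMIs were therefore divided at random into equal parts, with the cells chosen on one part and Ly6a measured on the other, and this was done 10 times. In the part that made the choice, Ly6a stood at 710 to 754 CPM. In the part that did not, the 253 cells, chosen anew each time, held 495 to 525 CPM, against 18.2 to 21.2 CPM in cells with 0 UMIs in the first part. The ratio was 23.8 to 27.7. By this measure the level of Ly6a in the chosen cells was lower than the share that chose them, and still many times that of the other cells.

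Ly6a-high cells were close to the comparison cells in depth. Their median was 8296 UMIs and 3074 genes, against 7998 UMIs and 2977 genes, and at an equal depth of 5000 UMIs the median was 2240 against 2239 genes. Mitochondrial genes took a median of 2.08% against 2.03% of UMIs, and ribosomal protein genes 28.1% against 29.7%. Cells above the 95th percentile of UMIs made up 6.32% of Ly6a-high and 3.55% of comparison cells. Doublets were not removed, and their part in the results was not tested. Cells between the sets were deeper, at a median of 10292 UMIs.

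Many defining markers of other cell types had no UMI in these cells. Of 15 endothelial markers, 9 had no UMI in Ly6a-high cells, among them Cdh5, Kdr, Tek and Tie1, and 213.7 of the list's summed 251 CPM came from Ly6c1 alone, against 9.01 of 51.6 CPM in comparison cells. Of 18 immune markers, 13 had no UMI, among them Ptprc, Itgam, Adgre1 and Csf1r, and the list summed to 21.7 against 16.5 CPM. Of 10 fibroblast markers, 5 had no UMI, among them Pdgfrb, Dcn and Lum, and the list summed to 22.6 against 14.2 CPM, of which Col3a1 gave 11.5 against 3.28 CPM. In comparison cells, which held 35724628 UMIs in all against 2344864, 5 endothelial, 6 immune and 1 fibroblast marker had no UMI.

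Among the genes named here, the closest to Ly6a in behaviour was its neighbour Ly6c1 (ENSMUSG00000079018), which encodes the surface antigen Ly-6C on monocytes and endothelial cells. Ly6c1 stood at 213.7 CPM in Ly6a-high cells (501 UMIs), at 56.3 CPM in the cells between and at 9.01 CPM in cells without Ly6a, a 23.7-fold difference. A UMI of Ly6c1 was present in 156 Ly6a-high cells, 61.7% (55.4 to 67.7), in 37.3% of the cells between and in 6.12% (5.40 to 6.90) of cells without Ly6a. No single cell set the difference, since the richest held 36 of the UMIs. Cells without Ly6a still held 322 of 1286 UMIs of Ly6c1, 25.04%, and missed or free Ly6a transcripts in them were not tested for. Within the Ly6a-high cells, Spearman's rho between the shares of Ly6c1 and Ly6a was 0.40 over 253 cells, which share a library and a denominator.

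The promoter of Ly6c1 is shown because it belongs to the gene with the largest log2 ratio among those with at least 100 UMIs over both sets. It is from RefSeq (GRCm38.p6, the same build as mm10) and holds the 250 bases before the start of the gene, on the minus strand at chr15:75048838-75049087, printed 5' to 3' on that strand. No part of it is marked with capitals.
Ly6c1: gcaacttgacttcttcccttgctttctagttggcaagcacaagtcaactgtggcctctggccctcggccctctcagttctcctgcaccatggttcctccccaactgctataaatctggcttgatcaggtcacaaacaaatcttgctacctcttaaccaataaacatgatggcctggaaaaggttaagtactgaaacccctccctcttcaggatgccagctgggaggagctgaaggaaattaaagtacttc

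Across 11117 genes with at least 100 UMIs over both sets, 450 (4.05%) were at least 1.5-fold higher in Ly6a-high cells and 555 (4.99%) at least 1.5-fold lower, Ly6a left out. Many of these rest on few molecules: the whole interval lay past 1.5-fold for 45 higher and 11 lower genes. Of the 450 higher genes, 262 stayed past 1.5-fold once the cell with the most UMIs of that gene was left out. Genes are called higher or lower here by size alone.

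The other genes named as highest had the following levels. Tmsb4x, which encodes the actin monomer binding protein thymosin beta 4, stood at 2500 CPM against 685 CPM (3.65-fold), and its median per cell was 1606 against 272 CPM. Ly6e, another GPI-anchored Ly6 protein and an interferon-stimulated gene, stood at 181 against 52.9 CPM (3.42-fold), with a UMI in 67.2% against 29.9% of cells. Sema3d, a secreted semaphorin, was 4.95-fold higher, at 27.7 against 5.598 CPM, and was seen in 46 Ly6a-high cells. Nppb, the precursor of B-type natriuretic peptide, stood at 25.6 against 8.09 CPM, and Ifi204, an interferon-induced gene of the p200 family, at 29.4 against 10.0 CPM. Cryab, the small heat shock protein alphaB-crystallin, stood at 5426 against 2666 CPM (2.04-fold) and was present in all 253 cells. Psmb8, a catalytic subunit of the immunoproteasome, stood at 218 against 107 CPM (2.04-fold).

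The listed markers differed in size. Rgcc stood at 359 against 141 CPM (2.55-fold, 2.37 to 2.74), with a median per cell of 246 against 78.4 CPM. Cd81 stood at 249 against 120 CPM (2.09-fold, 1.91 to 2.28), with a UMI in 70.0% against 40.5% of cells. Ydjc stood at 25.6 against 15.96 CPM on 60 UMIs (1.60-fold), and its log2 ratio of 0.68 had an interval of 0.27 to 1.07 that reaches below 1.5-fold. Ly6a-high cells overlapped widely with the comparison cells in each of these genes: 33.2% of them lay above the 90th percentile of the comparison cells for Rgcc, 30.04% for Cd81 and 15.0% for Ydjc.

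For a pair of the highest genes, 3 cells held most of the UMIs in the Ly6a-high set. Ptgds, prostaglandin D2 synthase, stood at 28.1 against 4.42 CPM, but 3 cells held 89.4% of its UMIs, and its UMIs were present in 3.95% against 3.11% of cells. Without the richest cell the log2 ratio went from 2.67 to 1.59. For the noncoding gene 9130015A21Rik, at 54.2 against 7.81 CPM, 3 cells held 52.0% of the UMIs, and 30 Ly6a-high cells (11.9%) had a UMI. Its log2 ratio went from 2.79 to 2.20 at the lowest, with cells thinned to 5000 UMIs before scoring.

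**Figure D1:**
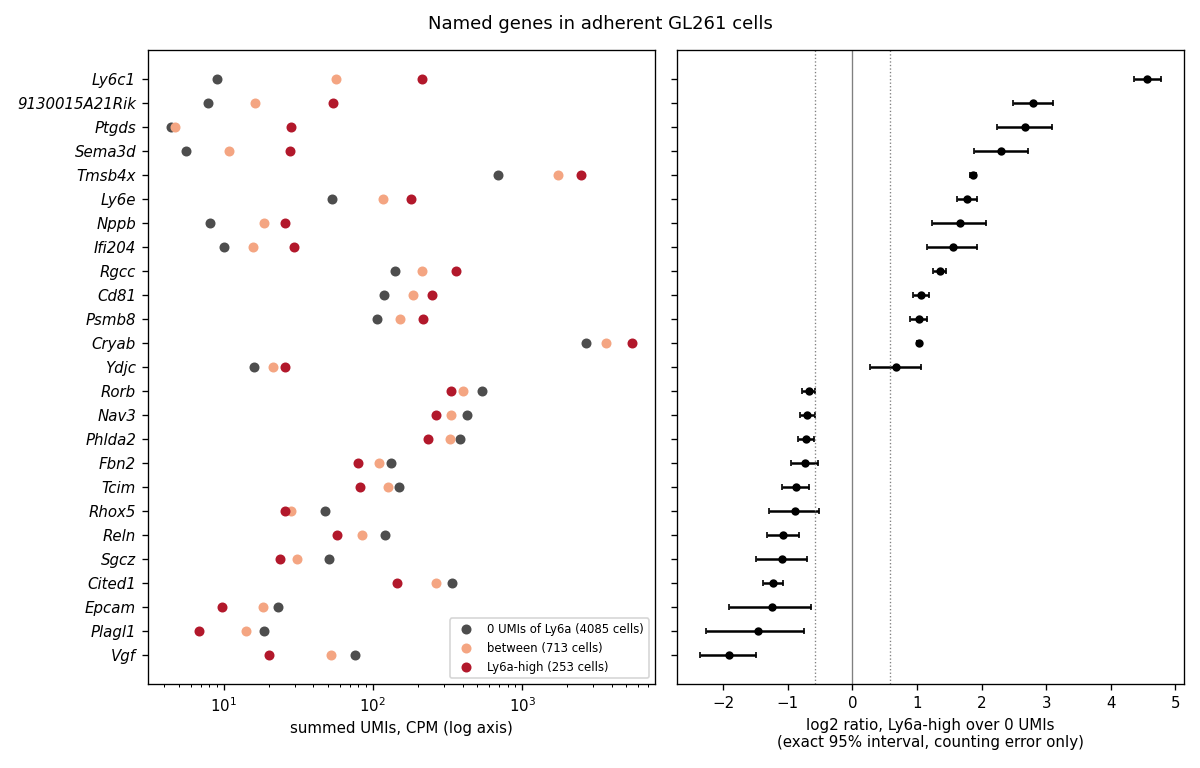
Levels of the 25 named genes other than Ly6a in adherent GL261 cells. Left, summed UMIs as CPM on a log axis in the 253 Ly6a-high cells, the 713 cells between and the 4085 cells without Ly6a. Right, log2 ratio of Ly6a-high over cells without Ly6a with exact 95% intervals for counting error, the dotted lines marking 1.5-fold. Ly6c1 stands apart at a log2 ratio of 4.57, and for every gene shown the cells between lie between the other sets.

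The genes named as lowest in Ly6a-high cells had the following levels. Vgf, a neurosecretory peptide precursor, stood at 20.0 CPM in Ly6a-high cells against 75.5 CPM (log2 ratio -1.91), with a UMI in 11.1% against 25.1% of cells. Cited1, a transcriptional co-regulator, stood at 145 against 339 CPM (-1.23), with a UMI in 32.8% against 60.6% of cells. Phlda2, an imprinted growth restraining gene, stood at 235 against 384 CPM (-0.71). Reln, the secreted guidance protein reelin, stood at 57.6 against 121 CPM (-1.07), Nav3, a microtubule binding neuron navigator, at 265 against 430 CPM (-0.70), and Rorb, an orphan nuclear receptor, at 335 against 536 CPM (-0.68). Epcam, an epithelial adhesion molecule, stood at 9.81 against 23.1 CPM (-1.24), and Plagl1, an imprinted zinc finger gene, at 6.82 against 18.7 CPM (-1.45). Sgcz (-1.08), Tcim (-0.88) and Fbn2 (-0.74) were also among the 12 lowest genes. Rhox5 (-0.90) was as well, but 3 cells held 56.7% of its UMIs in the Ly6a-high set. P2rx7, an ATP-gated ion channel gene, stood at 16.6 against 12.5 CPM, with an interval of -0.10 to 0.88 around its log2 ratio of 0.41.

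The differences were also followed over the range of the Ly6a share. The 966 cells with a UMI of Ly6a were put in order of its share and divided into 5 bins of 193 or 194 cells. The highest bin lay on the same side of the cells without Ly6a as the whole Ly6a-high set for all 25 named genes, whose cells it shares. Only 5 of the 25 moved one way at each step, Ly6c1 and Ly6e upward and Vgf, Cited1 and Phlda2 downward. Ly6c1 stood at 9.01 CPM in cells without Ly6a and at 31.2, 44.2, 66.3, 111 and 251 CPM from the lowest to the highest bin. Ly6e stood at 52.9 and then at 104, 107, 123, 140 and 200 CPM. Cited1 went from 339 CPM through 317, 265, 227 and 197 to 140 CPM, and Vgf from 75.5 to 14.9 CPM. The other 20 genes did not keep one direction by value, but steps within counting error were counted too. Ly6e had intervals of 92.9 to 117 CPM in bin 1 and 93.4 to 122 CPM in bin 2. Those of Rgcc were 204 to 245 CPM in bin 2 and 185 to 227 CPM in bin 3. Tmsb4x stood at 685 CPM without Ly6a, then at 1410, 1942, 1754, 2277 and 2490 CPM, and Rgcc at 141, then 182, 224, 205, 298 and 360 CPM. Cd81 stood at 120, then 174, 232, 171, 193 and 252 CPM, and Nppb at 8.09, then 26.8, 14.3, 15.8, 12.7 and 29.9 CPM. Ptgds stood at 36.2 CPM in the highest bin and at 2.53 to 6.88 CPM in the others. The lowest bin was the deepest, at a median of 13629 UMIs against 6913 to 9039 in the others, since 1 UMI in a deep cell gives a small share.

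**Figure D2:**
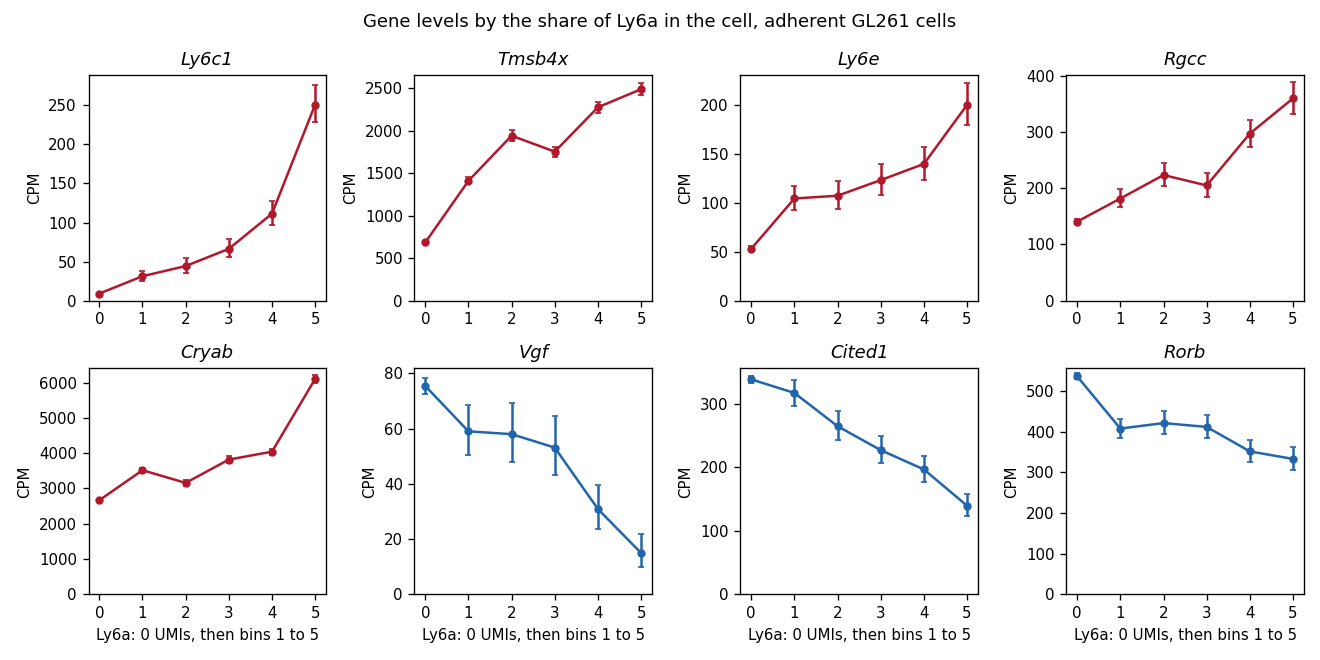
Levels of 8 genes (CPM, linear axes from 0) in adherent cells with 0 UMIs of Ly6a and in 5 bins, 1 lowest to 5 highest, of the 966 cells with a UMI by the share of Ly6a. Points are summed UMIs and bars exact 95% Poisson intervals. Ly6c1 climbs to 251 CPM at the highest bin, while Cited1 goes down at each step to 140 CPM.

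The counts of list genes are to be read against the 4.05% of all genes that were at least 1.5-fold higher and the 4.99% that were lower. Of the Ly6 and uPAR domain family, 39 genes were in the files and 6 had enough UMIs to be counted. In Ly6a-high cells, 4 of them (66.7%) were at least 1.5-fold higher and 0 lower, with a median log2 ratio of 1.00 beside -0.01 over all 11117 genes. With so few genes that median moved with the settings, from 0.54 with the top 10% of cells to 1.77 with at least 500 UMIs per gene. Beside Ly6c1 and Ly6e these were Lynx1, a GPI-anchored modulator of nicotinic receptors, at 13.2 against 5.46 CPM, and Cd59a, an inhibitor of complement, at 5.12 against 3.08 CPM on 12 UMIs. The urokinase receptor Plaur was counted and did not pass. Of 33 tetraspanins and partners, 21 were counted and Cd81 alone was 1.5-fold higher, with 0 lower and a median of 0.09. The log2 ratio of Cd81, 1.06, went to 0.47, under 1.5-fold, when comparison cells were weighted by their shares of chromosome 16 and chromosome 10. Without the weighting, Cd81 is 4.76% of the list beside 4.05% of all genes, so the list as a whole was near the background. Cd9, another tetraspanin, stood at 2472 against 2168 CPM, and Cd63 at 1951 against 2373 CPM. The genes that build GPI anchors had a median of -0.03, with 1 of 25 higher (Pigg) and 1 lower (Pigc), near the 4.05% and 4.99% of all genes.

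The interferon-stimulated genes were a little higher across most of the list. Of 47 counted, 6 were at least 1.5-fold higher (12.8% beside 4.05% of all genes) and 0 lower (beside 4.99%), the median was 0.22, and 41 lay above 0 beside 47.6% of all genes. The 6 were Ly6e, the mono-ADP-ribosyltransferase family genes Parp14 and Parp9, the nuclear body gene Sp100, the RNA helicase gene Dhx58 and the chemokine gene Cxcl10. Sp100 stood at 35.8 against 18.7 CPM and Cxcl10 at 410 against 271 CPM. Other abundant members were under 1.5-fold: Isg15 stood at 2189 against 1853 CPM, Bst2 at 4571 against 3937 CPM and Ifit3 at 289 against 210 CPM. Ly6e is in this list and in the Ly6 family, and Ly6a itself was left out of both. With comparison cells weighted by their shares of chromosome 16 and chromosome 10, the median of the interferon list went from 0.22 to 0.15.

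Of 20 counted genes of MHC class I presentation, 2 were higher, Psmb8 and Psmb9, 1 was lower, Tapbpl, and the median was 0.29. The background over all genes was 4.05% higher and 4.99% lower, so the lower count was near it. Psmb8 went under 1.5-fold, to a log2 ratio of 0.58, with comparison cells weighted by chromosome 16 and chromosome 10. Psmb9, another immunoproteasome subunit, stood at 49.9 against 31.5 CPM, and Psme1, a proteasome activator, at 232 against 163 CPM. The heavy chain genes H2-D1 and H2-K1 stood at 207 against 160 CPM and 149 against 115 CPM. The chaperones Calr, Canx and Pdia3 had log2 ratios of -0.13, -0.17 and -0.16.

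Most of the TGF-beta and BMP list did not share the difference of Rgcc. Of 26 counted genes, Rgcc and Bmp1 were higher and Tgfbi, at 2 UMIs, was lower, with a median of -0.10. These counts were near the 4.05% and 4.99% of all genes. The inhibitor of differentiation genes Id1 and Id2, targets of BMP signalling, stood at 383 against 567 CPM and 181 against 212 CPM. Of 17 ERK feedback targets, 0 were higher and Etv5, Fosl1 and Egr1 were lower, beside 4.99% of all genes (median -0.18).

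Most genes of the G2/M list had a slightly lower value in Ly6a-high cells: 7 of 52 lay above 0, beside 47.6% of all genes. Of 52 genes of the G2/M phase, Gtse1 was higher, Nek2, Kif23, Gas2l3 and Ncapd2 were lower, and the median was -0.25, where 4.05% of all genes were higher and 4.99% lower. Cdk1 stood at 367 against 447 CPM and Top2a at 280 against 333 CPM. Of 42 genes of the G1/S phase, 1 was higher, Cdc45 (2.38% of the list), the median was 0.10 and 28 lay above 0.

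Ly6a marks stem and progenitor cells in several tissues, but the surface and progenitor markers used for other stem cells were mixed here. Of 12 counted, Procr (8.96 against 3.22 CPM), Cspg4 and Alcam were at least 1.5-fold higher (25% of the list beside 4.05% of all genes), 0 were lower, and the median was -0.01. Sox2 stood at 196 against 213 CPM, Cd44 at 95.5 against 109 CPM and Nes at 101 against 106 CPM. Of 8 counted fibroblast and mesenchymal genes, Col3a1, S100a4 and Fn1 were higher (37.5% of the list) and 0 were lower. S100a4 stood at 581 against 321 CPM, and fibronectin (Fn1) at 77.6 against 45.3 CPM.

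The stress, p53 and hypoxia lists had few genes past 1.5-fold, where all genes had 4.05% higher and 4.99% lower. Dissociation stress genes numbered 0 higher and 1 lower (Egr1) of 15, p53 targets 0 and 0 of 15, and hypoxia and glycolysis genes 1 higher (Ankrd37) and 0 lower of 22. The endothelial list had Ly6c1 as its only higher gene of 4 counted, and the immune list had 1 counted gene, which did not pass. A pair of lists was chosen on these libraries and is not independent. Of 12 genes of other adherent states, Cryab and Cxcl10 were higher and Vgf, Cited1, Krt8 and Phlda2 lower. Of 4 counted genes nearly lost in neurospheres, S100a4 and Klk8 were higher and Vgf lower.

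Several genes near Ly6a had higher levels as well, although most had few UMIs. Within 300 kb on either side, 28 genes were annotated and 7 other than Ly6a had at least 10 UMIs in cells without Ly6a. All 7 had a higher value in Ly6a-high cells and 6 of them by at least 1.5-fold, where 10.4% of 15355 genes with that minimum were that much higher. This minimum was set after the values were seen, and with at least 10 UMIs over both sets it was 8 of 9 genes, beside 11.2% of 15500. Ly6e starts 43.0 kb and Ly6c1 50.8 kb from the start of Ly6a, on opposite sides. Lynx1 starts 245 kb away, and Them6, 277 kb away, stood at 145 against 104 CPM (1.40-fold). Slurp1 had 17 UMIs in Ly6a-high cells, 11 of them in 1 cell, against 20 in comparison cells. Lypd2 had 4 UMIs in Ly6a-high cells and Jrk 9, and the interval of Jrk spans 0 (-0.26 to 1.93). Ly6i, 14.6 kb away, had 5 UMIs in 4 Ly6a-high cells and 0 in comparison cells.

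**Figure D3:**
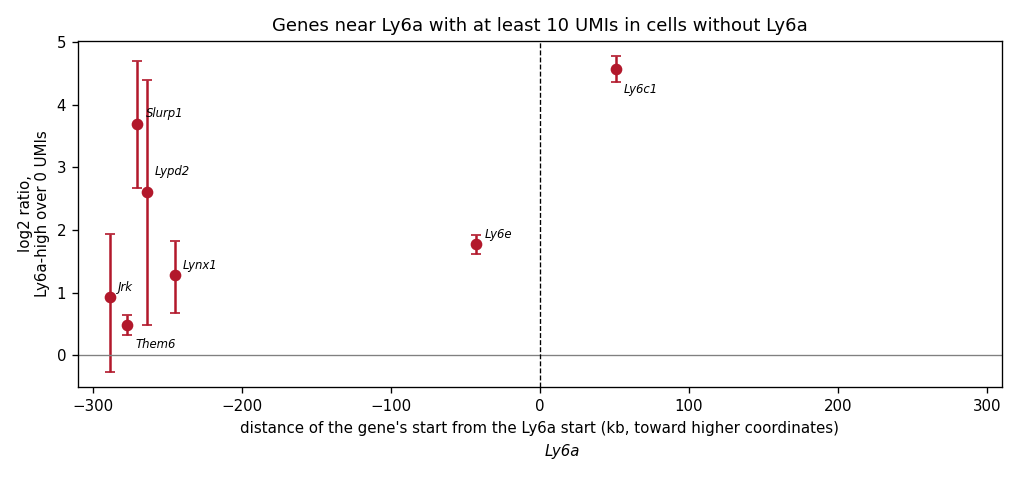
Log2 ratio of Ly6a-high cells over cells without Ly6a for the 7 genes within 300 kb of Ly6a that had at least 10 UMIs in cells without Ly6a, by the distance between gene starts in kb. Bars are exact 95% intervals for counting error. The values of all 7 lie above 0, and 6 of them with their whole interval, that of Jrk being the exception.

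Close copies can share reads, so the Ly6 values were set beside the sequences. In the GENCODE transcripts, the longest identical run shared with Ly6a was 118 bases for Ly6c1, 80 for Ly6i and 52 for Ly6c2, against 11 for Ly6e and 11 for Slurp1. Ly6c1 and Ly6c2 shared a run of 188 bases with each other. The run shared with Ly6c1 lies in 1 of the 6 annotated transcripts of Ly6a (Ly6a-205), 760 bases from its 3' end, and in 1 of the 7 of Ly6c1 (Ly6c1-207), 303 bases from its 3' end. This chemistry counts reads near the 3' end. The values of Ly6c1, Ly6i and Ly6c2 are uncertain to that extent, and a part of shared reads in them was not tested. That of Ly6e is not touched by a shared run.

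The difference also followed chromosomes. Over the 336 counted genes of chromosome 16 the median log2 ratio was 0.23, with 36 genes at least 1.5-fold higher (10.7%) and 2 lower (0.595%). Over the 560 counted genes of chromosome 10 it was -0.19, with 9 genes higher (1.61%) and 54 lower (9.64%). The medians of the other chromosomes lay between -0.07 and 0.02, except for chromosome 14 at 0.09. Chromosome 15, which carries Ly6a, had a median of -0.00. Ydjc, one of the listed markers, lies on chromosome 16, and Plagl1 and Nav3, among the 12 lowest genes, lie on chromosome 10.

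Each shift was present in every window of 20 Mb along its chromosome. On chromosome 16 the median was 0.19 to 0.24 in all 5 windows, the one from 60 to 80 Mb resting on 17 genes (0.22). On chromosome 10 it was -0.26 to -0.15 in all 7 windows. From the lowest to the highest of 5 bins of cells with a UMI of Ly6a, the median of chromosome 16 lay 0.09, 0.16, 0.13, 0.21 and 0.24 above that of all counted genes in the same bin. That of chromosome 10 lay below it in every bin, with differences of -0.18 to -0.08.

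Per cell, the chromosome share was taken as its UMIs over all UMIs relative to that of all kept cells, without the genes above the 90th percentile of abundance on it. For chromosome 16 the median was 1.21 in Ly6a-high cells (quartiles 0.90 and 1.39), 1.01 in the cells between and 0.94 in cells without Ly6a (quartiles 0.79 and 1.15). For chromosome 10 it was 0.90, 0.95 and 1.03. The values of the Ly6a-high cells were spread widely for chromosome 16: 128 cells (50.6%) were at 1.2 or above, against 21.0% of cells without Ly6a, and 63 (24.9%) were under 0.9, against 43.8%. A share of at least 1.2 for chromosome 16 together with one under 0.9 for chromosome 10 was found in 72 Ly6a-high cells, 28.5% (22.98 to 34.4). It was found in 13.5% (11.04 to 16.2) of the cells between and 4.55% (3.93 to 5.24) of cells without Ly6a. These limits were set after the values were seen. Of the 354 cells with that combination, 20.3% were Ly6a-high, against 3.85% of the other 4697 cells. For chromosome 1 and chromosome 11, taken the same way, the medians were 1.04 against 1.01 and 1.01 against 1.00.

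Counts of RNA do not measure copies of DNA, and a karyotype of these cells was not used here. When cells without Ly6a were weighted to match Ly6a-high cells in 3 levels of the share of chromosome 16 and 3 of chromosome 10, the median of chromosome 16 went to 0.01 and that of chromosome 10 to -0.08, so chromosome 10 was matched in part. With this weighting Ly6c1 still stood at a log2 ratio of 4.15, Tmsb4x at 1.36, Ly6e at 1.27 and Rgcc at 1.00. Cd81 went to 0.47, Psmb8 to 0.58 and Ydjc to 0.34, all under 1.5-fold. Cd81 lies on chromosome 7 and Psmb8 on chromosome 17, so neither is on a weighted chromosome. Of the 25 named genes, 19 stayed past 1.5-fold, 10 of 13 higher and 9 of 12 lower. This weighting was chosen after the data were seen.

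**Figure D4:**
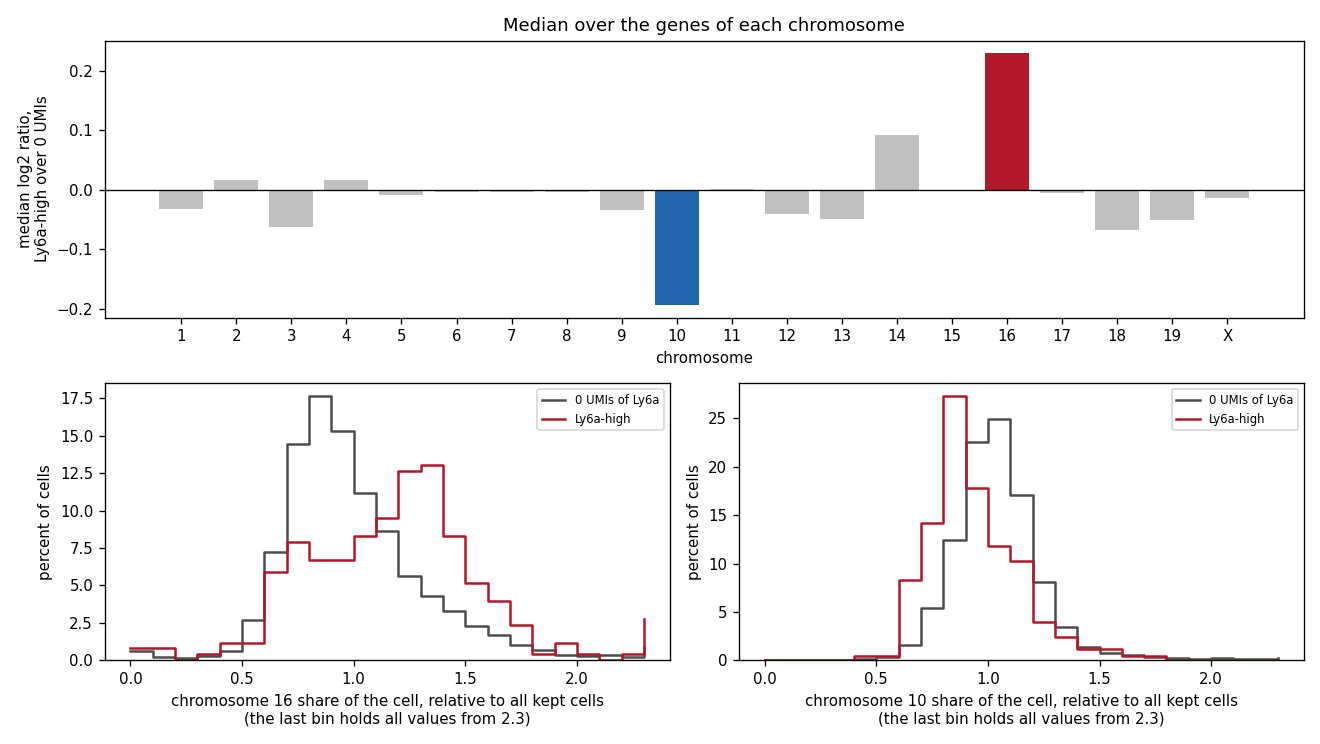
Top, median log2 ratio of Ly6a-high cells over cells without Ly6a for the counted genes of each chromosome. Bottom, percent of cells by the share of chromosome 16 (left) and chromosome 10 (right) in the cell relative to all kept cells, in bins of width 0.1. Chromosome 16 (0.23) and chromosome 10 (-0.19) stand apart, and the Ly6a-high cells spread widely in their share of chromosome 16.

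Ly6a-high cells were not one cluster. Adherent cells were clustered in Seurat with Ly6a left out of the variable genes, which gave 10 clusters, and Ly6a-high cells were found in all 10. Cluster 8, of 196 cells, was richest, with 32 Ly6a-high cells, 16.3% (11.4 to 22.3), where Ly6a-high cells were 5.01% of all kept cells. It held 12.6% of the Ly6a-high cells and 2.42% of cells without Ly6a. Its leading genes were Cd81, Ly6a, Rgcc, Egflam, Olig2 and Ptprz1, 3 of which are listed markers. In the other clusters the share was 2.13% to 6.58%. With Ly6a among the variable genes, the richest cluster held 37 of its 205 cells as Ly6a-high.

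Cluster 8 also carried the chromosome pattern, with a median log2 ratio over the other cells of 0.41 on chromosome 16 and -0.25 on chromosome 10, where all counted genes had -0.02. Most Ly6a-high cells lay outside this cluster. Without it, the remaining 221 Ly6a-high cells still had a median of 0.20 on chromosome 16 and -0.19 on chromosome 10, with 484 genes higher and 638 lower. Among the 30 nearest neighbours of a cell in the components without Ly6a, an average of 11.4% were Ly6a-high for Ly6a-high cells, 5.61% for the cells between and 2.65% for cells without Ly6a. For 35 Ly6a-high cells (13.8%) no neighbour was Ly6a-high.

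**Figure D5:**
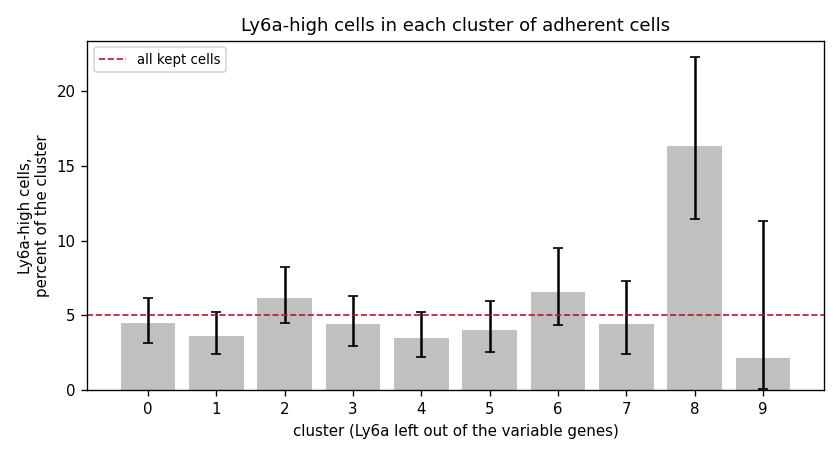
Percent of each cluster of adherent cells that was Ly6a-high, in clusters built with Ly6a left out of the variable genes. Bars have exact 95% binomial intervals for counting error, and the dashed line is the 5.01% of all kept cells. Cluster 8 stands at 16.3% and the others between 2.13% and 6.58%.

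The overlap with cells chosen by the same rule on other genes is set beside the 5.01% that Ly6a-high cells were of all kept cells. The top 5% by the summed share of Cited1 and Phlda2 shared 7 cells with the Ly6a-high set (2.77% of each), while they took in 5.43% of cells without Ly6a. The top 5% by Mt3 and Vgf shared 6 cells (2.37% of each), against 5.19% of cells without Ly6a. The top 5% by Cxcl10 shared 21 cells (8.30%, 5.21 to 12.4, of each), against 4.48% of cells without Ly6a. These sets draw on the same library and totals.

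In the neurosphere library, 28 UMIs of Ly6a came from 4 of 4276 kept cells, with 1, 2, 8 and 17 UMIs, and Ly6c1 had 3 UMIs in 1 of these cells. Ly6e stood at 215 CPM in the 4 cells against 9.08 CPM in neurosphere cells without Ly6a, Psmb8 at 251 against 32.2 CPM, Tmsb4x at 4594 against 1899 CPM and Cryab at 1113 against 387 CPM. Summed over the 4 cells, these genes were higher there as in adherent cells. The UMIs of Ly6e came from 2 of the 4 cells, and those of Psmb8, Tmsb4x and Cryab from all 4. Cd81 and Rgcc were not higher, and 4 cells of 1 library allow no more than these values. The libraries had 12 called cell barcodes in common, and none of the 4 cells had one of them. A UMI of Ly6a was present in 0.0935% (0.0255 to 0.239) of neurosphere cells at a median of 13199 UMIs, against 19.1% of adherent cells at 8260 UMIs. The culture holds no cell type that should lack Ly6a, so the share that free RNA gives in the adherent library was not tested, and the 19.1% cannot all be read as expressing cells.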

How the data were processed

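Deposited for each library was a table of unnormalized UMI counts for every gene and called cell, made by the authors with Cell Ranger 7.0.1 (mm10 in the submitters' processing notes). The adherent library held 68531063 UMIs and its kept cells 46290996 on the genes left. The 13 mt- genes and 101 Rps and Rpl genes were removed, then cells filtered as described. The cells and the 18 gene lists were chosen with earlier results of these data known. UMIs were summed per set. Genes needed 100 UMIs over both sets. Named genes were Ly6a, Cd81, Ydjc, Rgcc and 12 genes at either end of the log2 ratio with 10 CPM added to both levels, plus list genes past 1.5-fold and the most abundant ones. Clusters came from Seurat 5.3.0 (2000 variable genes, 17 components, resolution 1.0; R 4.3.3). Gene positions came from GENCODE M21, in which 32044 of 32171 identifiers matched. TMM factors came from edgeR 4.0.16. The intervals were tested on simulated data with 200 changed genes. Python 3.11.15, numpy 2.4.6, scipy 1.17.1 and matplotlib 3.10.9 were used. Alternatives numbered 18, with 4 added after the data were seen.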

Additional observations from a re-analysis of the deposited data

Results flagged for a closer look

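In the neurosphere library, 3 named genes had the opposite sign from the adherent library when cells with Ly6a were set against cells without it, with the whole counting interval below 0. Cd81 had a log2 ratio of -0.36 (-0.50 to -0.22), against 1.06 in adherent cells. Rgcc had a log2 ratio of -0.92 (-1.70 to -0.24), against 1.35, and Ptgds one of -1.11 (-1.61 to -0.66), against 2.67. All 3 genes had a higher level in neurosphere than in adherent cells as a whole: Cd81 stood at 6682 against 138 CPM, Rgcc at 385 against 165 CPM and Ptgds at 983 against 5.68 CPM. The difference between the libraries was not tested, and the neurosphere values rest on 4 cells, with the 17 UMIs of Rgcc in 2 of them.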

How the results depend on the processing

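The counts of genes at least 1.5-fold higher and lower, 450 and 555, moved with the share of cells taken, the minimum of UMIs, the fold and the richest cell of a gene, and the cause was not tested. They were 765 and 998 with the top 2.5% of cells, 199 and 278 with the top 10%, 2828 and 6471 without a minimum of UMIs per gene, 93 and 121 with at least 500 UMIs, 74 and 151 at 2-fold, and 262 and 973 without the cell with the most UMIs of each gene, an exclusion that lowers ratios by its construction. Under the other 16 alternatives they stayed within 1.5 times. The log2 ratios of the 25 named genes kept their sign in all 475 values, of which 409 lay within the interval of the main value. They stayed past 1.5-fold for 17 genes under every alternative, and 8 genes went under it in at least 1. Ydjc went from 0.68 to as low as 0.34 (3 alternatives), Nav3 from -0.70 to -0.47 (3), Fbn2 from -0.74 to -0.36 (2) and Rorb from -0.68 to -0.53 (2). Cd81 (0.47), Psmb8 (0.58) and Rhox5 (-0.48) went under it only with the weighting by chromosome, and Phlda2 (-0.53) only with the top 10%. Of the 25, 9 moved by over 1.5 times, Rhox5 the most, from -0.90 to -2.61 with the top 2.5%. Ly6c1 went from 4.57 to 3.58 with all other kept cells as comparison. With the top 10%, Plagl1 went from -1.45 to -0.61 and Epcam from -1.24 to -0.60. Of 315 medians of the 15 lists with at least 5 counted genes, 33 had another sign than the main median, in 6 lists and at values of -0.12 to 0.24. In 32 of these the main median was itself within 0.1 of 0, so no direction is given for the lists of GPI anchor synthesis, stem markers, dissociation stress, p53 targets and hypoxia. The other was the list of genes of other adherent states, which went from -0.20 to 0.22 with cells thinned to 5000 UMIs before scoring. The cause was not tested. The medians of chromosome 16 (0.16 to 0.28) and chromosome 10 (-0.25 to -0.14) kept their sign under the alternatives that did not weight cells by those chromosomes. With that weighting they were 0.01 and -0.08. No paired analysis was possible because each condition is 1 library and no result comes from a test. The number of Ly6a UMIs per cell limits who is counted as Ly6a-high. With the 218 cells that had at least 3, 428 genes were higher and 658 lower.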
